A study of Mus musculus with 8 samples.

Results

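The genes described are 3 MEF2 transcription factors and the 4 class IIa histone deacetylases measured in RNA from the auditory nerve of mice. They were chosen by symbol, not by a rule on their measured values, as Mef2a, Mef2c, Mef2d, Hdac4, Hdac5, Hdac7 and Hdac9. Earlier results of these data were known when they were chosen. Mef2b was not among the genes chosen. All 7 were among the 15035 genes of the deposited table, and all 7 were among the 14870 genes tested. The auditory nerve carries signals from the hair cells of the cochlea to the brainstem and holds the spiral ganglion neurons with their Schwann cells, central glia, vessels and resident macrophages. It was dissected at postnatal day 21 from 4 wild type mice and 4 mice labelled Mef2c heterozygote (+/-), and the nerves of both cochleas of a mouse were pooled into 1 library. The wild type libraries are numbered 1 to 4 and the heterozygote-labelled libraries 5 to 8. The allele, the exons it removes, the strain and the sex of the mice are not given in the labels.

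MEF2 proteins bind an A/T-rich DNA motif through a MADS box that the family shares, and they switch from repressors to activators with the calcium state of the cell. Class IIa deacetylases bind the MADS and MEF2 domains, bring HDAC3 and its corepressor complex to MEF2 sites, and leave the nucleus with 14-3-3 proteins once calcium-dependent kinases phosphorylate them. In the nervous system this pair of families is known for linking electrical activity to neuronal survival and synapse number, and Mef2c is also known from microglia, endothelial cells and cartilage.

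The values are normalized counts, that is, reads per gene scaled by a size factor of each library, with an estimated 13363056 to 21505981 reads behind a library. Markers of the labelled tissue were present, all 9 for neurons and all 6 for Schwann cells, with summed levels of 152254 to 210410 and 97785 to 137367 normalized counts per library. Of 7 skeletal muscle markers, 6 were not in the table, and the remaining 1 lay between 2.2 and 25.4 normalized counts. All 6 hair cell markers were present, with sums of 2557 to 3799 in wild type and 2537 to 5158 in the heterozygote-labelled libraries. Wild type library 1 and heterozygote library 5 stood apart, with 12 and 7.6 normalized counts of Xist against 5175 to 8615 in the other 6. The 45S ribosomal RNA precursor Rn45s took 1.60% to 4.28% of a library. In bulk RNA, fewer cells of a type and less RNA per cell cannot be told apart.

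The coding sequences of the first 57 codons, which hold the MADS box, show how closely the MEF2 genes resemble each other and how far a read can tell them apart. Each runs 5′ to 3′ from the start codon (GENCODE M21, GRCm38), and capitals mark bases that differ from Mef2c.
Mef2c: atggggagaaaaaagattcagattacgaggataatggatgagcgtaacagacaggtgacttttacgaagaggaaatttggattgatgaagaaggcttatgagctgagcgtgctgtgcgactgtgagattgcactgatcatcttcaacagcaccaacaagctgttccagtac
Mef2a: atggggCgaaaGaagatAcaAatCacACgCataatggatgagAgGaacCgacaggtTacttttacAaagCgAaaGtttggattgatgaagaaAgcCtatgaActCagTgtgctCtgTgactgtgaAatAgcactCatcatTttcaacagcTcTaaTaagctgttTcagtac
Mef2d: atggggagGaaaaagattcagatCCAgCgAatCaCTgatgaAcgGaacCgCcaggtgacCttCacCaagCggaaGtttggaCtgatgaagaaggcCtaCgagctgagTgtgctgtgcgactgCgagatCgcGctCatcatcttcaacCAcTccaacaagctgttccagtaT
Over these 171 bases Mef2a differed from Mef2c at 31 positions (81.9% identity), Mef2d differed from Mef2c at 30 positions (82.5%), and Mef2a differed from Mef2d at 38 (77.8%). The longest run of identical bases anywhere in the coding sequences was 28 bases between Mef2c and Mef2d, 17 between Mef2a and Mef2c, and 13 between Mef2a and Mef2d. Among the deacetylases the longest identical runs were 35 bases between Hdac5 and Hdac9 and 32 bases between Hdac4 and each of Hdac5 and Hdac9. How the authors treated reads that match more than 1 gene is not given in the sources used here.

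The targeted gene, Mef2c (chr13:83504034-83667080, plus strand, 31 annotated transcripts), was measured first, as a check of the labels. Its normalized counts in wild type libraries 1 to 4 were 439, 498, 509 and 402. In heterozygote-labelled libraries 5 to 8 they were 583, 705, 735 and 649.8. Each of the 4 latter values lay above each of the 4 wild type values, against the direction of the label, and the libraries are therefore called "heterozygote-labelled". The mean was 462 ± 50.4 in wild type and 668 ± 66.8 in the heterozygote-labelled libraries (SD, n = 4 each), a ratio of 1.45. On the log2(value + 1) scale the difference was 0.53 (SE 0.13, 95% interval 0.26 to 0.81). In limma-trend fitted over all genes its unadjusted p of 0.00128 became 0.186 after Benjamini-Hochberg adjustment, so Mef2c did not pass the threshold of 0.05. A two-sided exact permutation test of the difference in means gave p = 0.0286, the smallest value that 4 against 4 libraries allow. The authors' deposited table gives Mef2c an FDR of 0.0162 and a ratio of 1.44, where an FDR under 0.05 is given to 1.61% of genes. The count sums reads over the whole gene, and because the altered exons are not given, it does not show how many reads came from each allele.

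**Figure D1:**
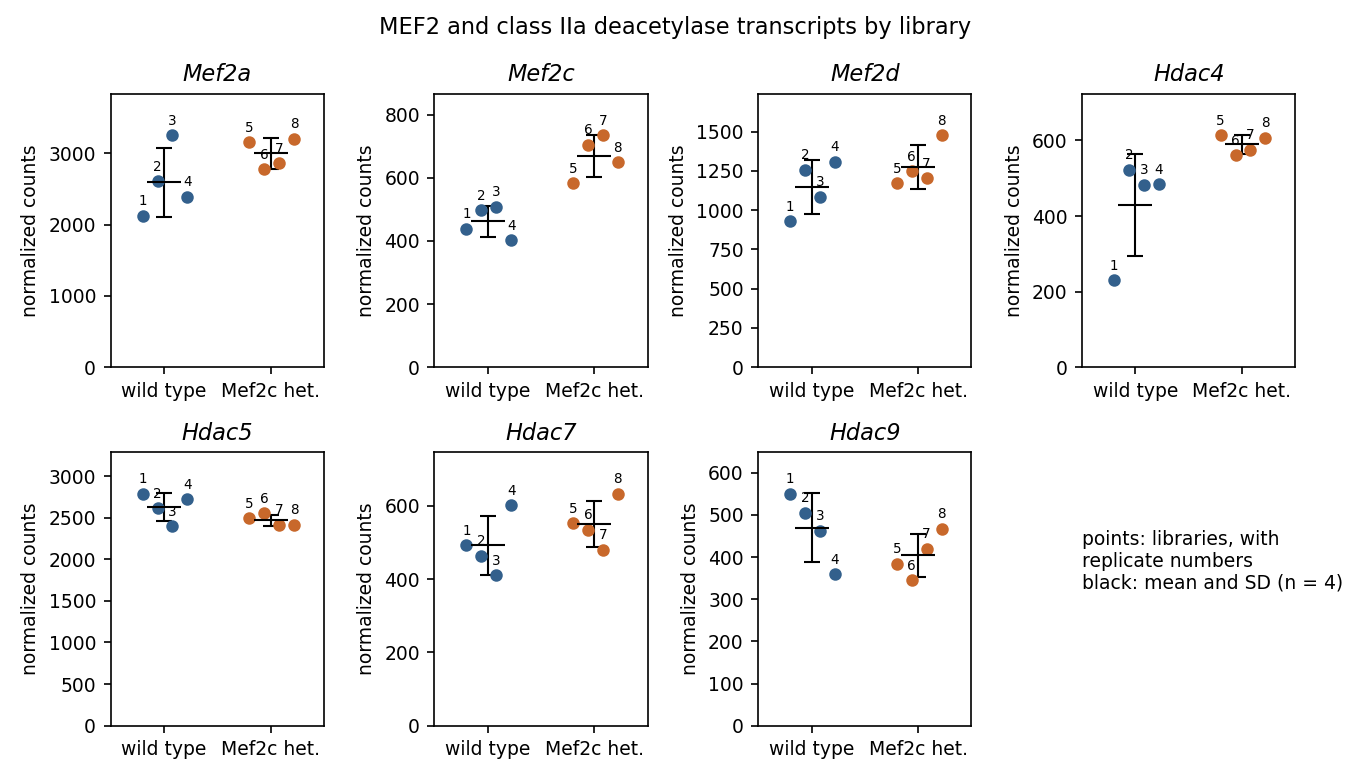
Normalized counts (vertical axes, linear from 0) of the 7 genes in 4 wild type libraries (blue, 1 to 4) and 4 libraries labelled Mef2c heterozygote (orange, 5 to 8), with the mean and SD in black. Mef2c and Hdac4 are the 2 genes whose groups do not overlap, and wild type library 1 sits at 229.7 for Hdac4 while the other 3 lie between 483 and 523.

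Transcripts of the other MEF2 factors described overlapped between the genotypes. Mef2a (chr7:67231163-67372858, minus strand), which is widely expressed in neurons and muscle, was at 2123, 2605, 3252 and 2392 normalized counts in wild type and at 3152, 2773, 2860.1 and 3206 in the heterozygote-labelled libraries. Wild type library 3 held the highest value of all 8 and library 1 the lowest. The means were 2593 ± 482 and 2998 ± 213 (SD, n = 4), and the log2 difference was 0.22 (SE 0.12, 95% interval -0.05 to 0.49), with an adjusted p of 0.418 by limma-trend. Without wild type library 3 the log2 difference was 0.34, the genotypes no longer overlapped, and the adjusted p was 0.0864.

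Mef2d (chr3:88142372-88172086, plus strand), a MEF2 factor known for promoting neuronal survival, was at 929, 1258, 1086 and 1308 normalized counts in wild type. It was at 1173, 1248, 1203 and 1477 in the heterozygote-labelled libraries. Values of the genotypes interleaved, with wild type library 1 lowest and library 8 highest. The means were 1145 ± 173 and 1275 ± 138 (SD, n = 4), and the log2 difference of 0.16 (SE 0.13, 95% interval -0.11 to 0.44) had an adjusted p of 0.559 by limma-trend. Exons of Mef2d share 531 bases with the antisense gene 1700113A16Rik, which was at 0 to 41.6 normalized counts, and those of Mef2a share 302 bases with Lysmd4 on the opposite strand, at 334.6 to 411.6. Exons of Hdac4 share more, 3536 bases, with the long noncoding gene Gm26720 on the opposite strand, which was not in the table. Those of Hdac7 share 29 bases with Slc48a1 on the opposite strand, at 1974.7 to 2558.2. Whether counting used the strand is not given in the sources used here.

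Hdac4 (chr1:91928779-92195699, minus strand) encodes a class IIa deacetylase known in neurons for its movement between nucleus and cytoplasm. Its normalized counts were 229.7, 523, 483 and 484 in wild type and 614, 561, 576 and 608 in the heterozygote-labelled libraries. Every library labelled heterozygote lay above every wild type library, and wild type library 1 lay far below the other 3. The means were 429.98 ± 134.8 and 589.6 ± 25.2 (SD, n = 4), a ratio of 1.37, and the coefficient of variation was 31.3% in wild type against 4.28% in the heterozygote-labelled libraries. The log2 difference was 0.52 (SE 0.23, 95% interval 0.03 to 1.02), with an unadjusted p of 0.0386 and an adjusted p of 0.333 by limma-trend. The two-sided exact permutation test gave p = 0.0286. Without wild type library 1 the log2 difference was 0.25 (adjusted p 0.400 by limma-trend), and without both libraries low in Xist it was 0.23 (adjusted p 0.423). Leaving out libraries cannot bring overlap to groups that have none, so these fits bear only on the size of the difference. That size was smaller without library 1.

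Hdac5 (chr11:102194432-102230166, minus strand), whose product is exported from the nucleus when neurons are active, was at 2788, 2616, 2398 and 2724 normalized counts in wild type and at 2493, 2550.3, 2417 and 2413 in the heterozygote-labelled libraries. It was the least variable of the 4 deacetylases, and wild type library 3 lay under all 4 heterozygote-labelled libraries. The means were 2631 ± 171 and 2468 ± 65.7 (SD, n = 4), and the log2 difference was -0.09 (SE 0.08, 95% interval -0.27 to 0.09) with an adjusted p of 0.623 by limma-trend.

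Hdac7 (chr15:97792664-97844502, minus strand), known from endothelial cells and thymocytes, was at 492, 464, 411 and 601.5 normalized counts in wild type and at 552, 535, 479.7 and 633 in the heterozygote-labelled libraries. The highest wild type library lay above 3 of the 4 labelled heterozygote. The log2 difference was 0.17 (SE 0.14, 95% interval -0.15 to 0.48; adjusted p 0.599, limma-trend). Hdac9 (chr12:34047580-34917095, minus strand), a deacetylase with a known short isoform that lacks the catalytic domain, was at 550.3, 505.5, 463 and 359.9 in wild type and at 384.5, 345, 419 and 467 in the heterozygote-labelled libraries. Wild type held both the highest values and 1 of the lowest. The log2 difference was -0.21 (SE 0.16, 95% interval -0.56 to 0.14; adjusted p 0.552, limma-trend), and isoforms of Hdac9 cannot be separated in gene-level values.

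Counted over the 7 genes, 0 passed an adjusted p of 0.05 in limma-trend, while 2, Mef2c and Hdac4, had an unadjusted p under 0.05 and 1, Mef2c, had an FDR under 0.05 in the authors' deposited table. Over all 14870 genes tested, 12 passed the adjusted threshold (0.0807%), 14.1% had an unadjusted p under 0.05, and 6.72% had such a p and were higher in the heterozygote-labelled libraries. The genotypes did not overlap for 2 of the 7, both higher in the heterozygote-labelled libraries, against 7.26% of all genes in either direction and 3.4% in that direction. The log2 difference was above 0 for 5 of the 7 and below 0 for 2, with a median of 0.17, beside 52.3% above 0 and a median of 0.02 over all genes tested. With a covariate added for the leading residual principal component, 2 of the 7 passed the adjusted threshold in limma-trend, Mef2c at an adjusted p of 0.0404 and Hdac4 at 0.0312, in a fit that called 3.87% of all genes. That component was taken from these same values after the genotype means were removed. It therefore leaves the log2 differences unchanged and lowers the residual spread by construction, so these p-values are not separate support. The authors' deposited table gives the other 5 genes and Hdac4 an FDR between 0.304 and 0.657.

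All 7 genes have long transcripts, and the libraries differed in how values depended on transcript length. The longest annotated transcripts run from 5179 bases (Hdac7) to 8100 bases (Hdac4), against a median of 3404 over the genes tested, and 78.8% to 94.2% of genes tested are shorter. Per doubling of transcript length, the log2 value relative to the mean of all libraries moved by -0.21, -0.03, 0.07 and -0.10 in wild type libraries 1 to 4. In libraries 5 to 8 it moved by 0.03, 0.05, 0.04 and 0.15. The tilt was most negative in wild type library 1, which was also the lowest of all 8 libraries for Mef2a, Mef2d and Hdac4. After each library was corrected for a smooth trend with length, the log2 difference of Mef2c was 0.38 (SE 0.12, unadjusted p 0.00698, adjusted p 0.269, limma-trend) and its genotypes still did not overlap. That of Hdac4 was 0.31 (SE 0.19, adjusted p 0.565, limma-trend), and its genotypes overlapped. Corrected differences were 0.09 for Mef2a, 0.04 for Mef2d, 0.05 for Hdac7, -0.22 for Hdac5 and -0.41 for Hdac9, so each of the 7 kept its sign. For Hdac5 and Hdac9 the unadjusted p after correction was 0.0454 and 0.0278, and the adjusted p was 0.441 and 0.384 by limma-trend.

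**Figure D2:**
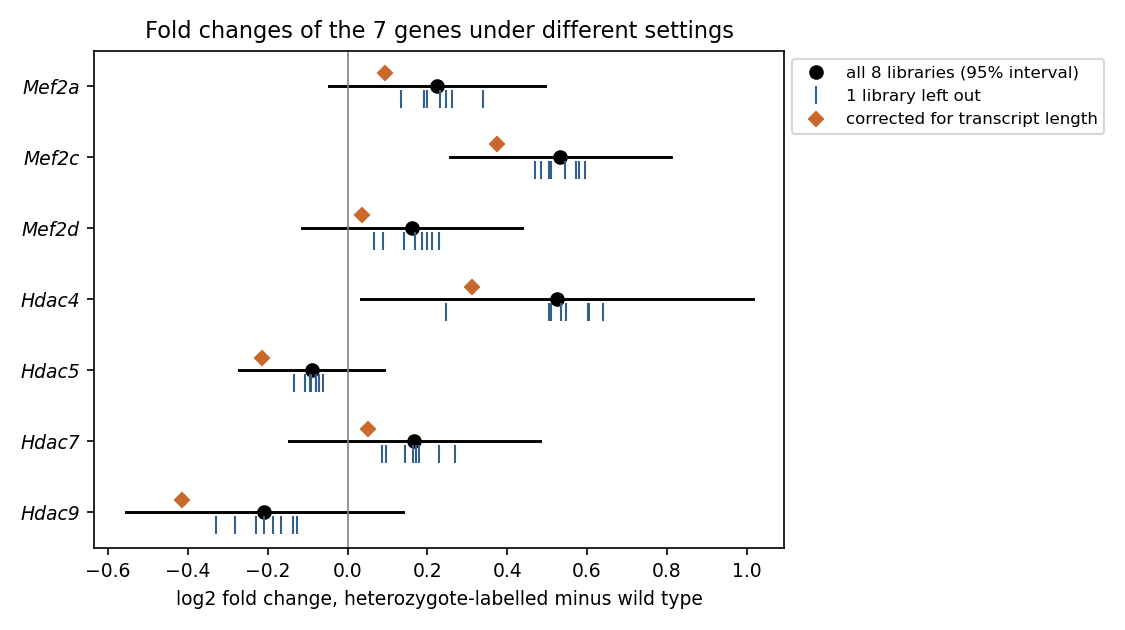
Log2 fold changes (horizontal axis, heterozygote-labelled libraries minus wild type) of the 7 genes from limma-trend with all 8 libraries (black, 95% interval), with 1 library left out at a time (blue ticks) and after correction for transcript length (orange diamonds). Mef2c and Hdac4 have intervals above 0, the length correction moves every gene to a lower value, and the tick for Hdac4 at 0.25 is the fit without wild type library 1.

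Levels were compared between genes as normalized counts per kilobase of the longest protein-coding transcript. Hdac5 (mean over 8 libraries 525.5 per kilobase) and Mef2a (505) stood highest and did not separate from each other, with Hdac5 above Mef2a in 4 of 8 libraries, 3 of them wild type. Mef2d followed at 224, below Mef2a in 8 of 8 libraries. Hdac7 at 123 lay above Mef2c at 90.03 in 7 of 8 libraries. Mef2c lay above Hdac4 (62.9) in 8 of 8, and Hdac4 lay above Hdac9 (55.01) in 7 of 8, wild type library 1 being the exception. Of the 3 MEF2 transcripts described, Mef2a was therefore the most abundant on this length, and the targeted gene was the least abundant.

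Within the MEF2 family, Mef2c made up 9.83% ± 1.08 of the summed level per kilobase in wild type (8.68% to 11.2%) and 12.1% ± 1.62 in the heterozygote-labelled libraries (10.6% to 13.7%, SD, n = 4 each), and these ranges overlapped. Mef2a made up 61.9% ± 3.96 and 61.2% ± 2.40, and Mef2d made up 28.3% ± 4.07 and 26.7% ± 1.70. The log2 ratio of Mef2c to Mef2a was -2.48 ± 0.18 in wild type and -2.17 ± 0.24 in the heterozygote-labelled libraries, and that of Mef2c to Mef2d was -1.30 ± 0.29 and -0.93 ± 0.21. Both ratios overlapped between genotypes, so relative to its paralogs Mef2c did not separate them as it did on its own. With the length of all annotated exons in place of the longest coding transcript, a choice made after seeing the data, Mef2d made up 48.2% and 46.3% and Mef2a 44.3% and 44.4%, so the order of these 2 depends on the gene model.

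Within the class IIa family the makeup separated the genotypes for 2 genes. Hdac4 made up 6.93% ± 2.27 of the summed level in wild type (3.60% to 8.41%) and 9.55% ± 0.34 in the heterozygote-labelled libraries (9.06% to 9.86%). Hdac5, the bulk of the family, made up 70.3% ± 1.69 (69.4% to 72.9%) and 66.7% ± 2.17 (63.7% to 68.7%, SD, n = 4 each), again without overlap. Shares of 1 total move against each other, so these are not separate measurements. The log2 ratio of Hdac4 to Hdac5 needs no length and was -3.60, -2.32, -2.31 and -2.49 in wild type against -2.02, -2.18, -2.07 and -1.99 in the heterozygote-labelled libraries. All 4 of the latter lay above all 4 wild type values, and wild type library 1 lay far below the other 3 of its genotype. The ratios of Hdac4 to Hdac9 and of Hdac7 to Hdac9 overlapped between genotypes, and how often other gene pairs separate was not counted. The longest transcripts of Hdac4 and Hdac5 have 8100 and 5406 bases, so the tilt of values with length can enter their ratio. After the length correction, Hdac4 on its own overlapped between genotypes. Hdac7 made up 15.0% ± 1.76 and 17.0% ± 1.57, and Hdac9 made up 7.70% ± 1.42 and 6.67% ± 0.84, with overlap in each case.

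**Figure D3:**
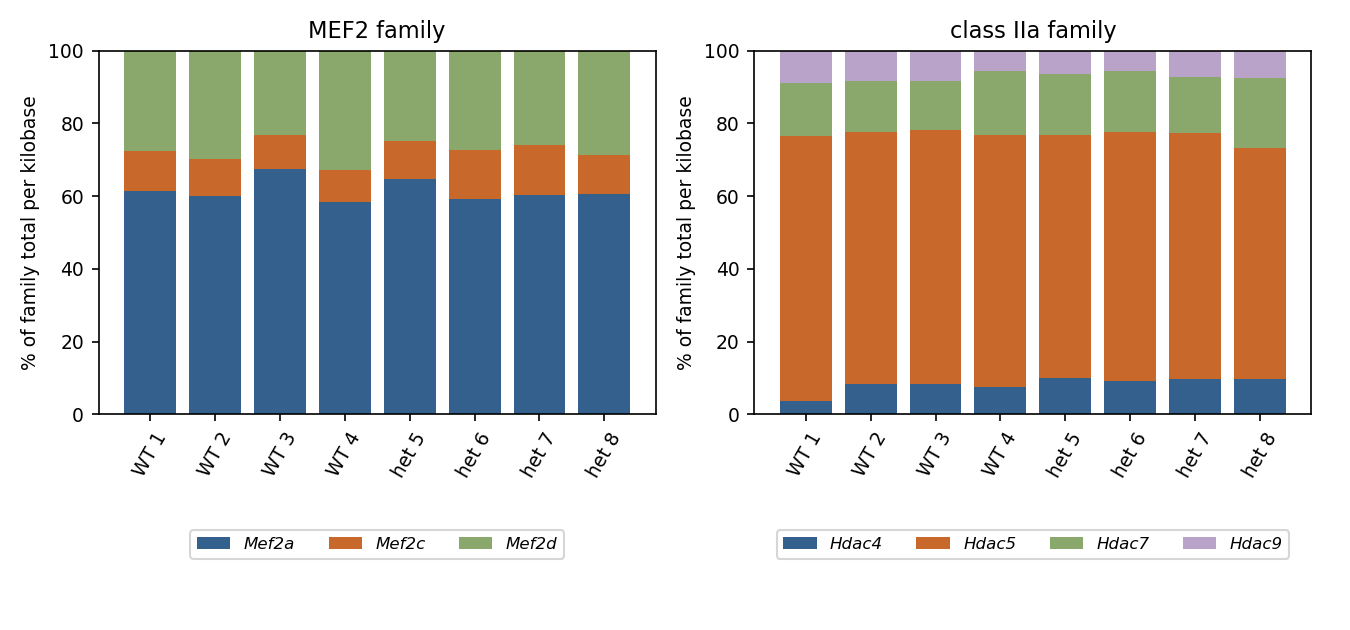
Share of each gene in the summed normalized counts per kilobase of the genes shown (vertical axes, percent), with 1 bar per library. The 3 MEF2 genes described are on the left and the 4 class IIa genes on the right. Mef2a and Hdac5 fill most of every bar, and the Hdac4 segment ranges from 3.60% to 8.41% in wild type and from 9.06% to 9.86% in the heterozygote-labelled libraries.

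The summed levels of the 3 MEF2 genes described and of the 4 class IIa genes were close to each other. The MEF2 total per kilobase was 754 ± 102 in wild type (625 to 869) and 884 ± 50.2 in the heterozygote-labelled libraries (844 to 956), and the class IIa total was 771 ± 43.1 and 762.5 ± 19.2. The ratio of the MEF2 total to the class IIa total was 0.985 ± 0.183 in wild type and 1.16 ± 0.0501 in the heterozygote-labelled libraries (SD, n = 4 each). Wild type spanned 0.793 in library 1 to 1.23 in library 3 and so enclosed the whole range of the other genotype, 1.10 to 1.22.

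Several cell types of the nerve and its bony surroundings carry MEF2 and class IIa transcripts, and the levels of their markers are given beside the values of Mef2c. Of 6 chondrocyte markers 4 were in the table (Matn3 and Col10a1 were not), all 4 had higher means in the heterozygote-labelled libraries, and their summed level was 8820, 7110, 6117 and 5850 normalized counts in wild type against 11855, 9140, 11215 and 11678. Like Mef2c, that sum did not overlap between genotypes, and Acan, the large proteoglycan of cartilage, had a log2 difference of 0.85 (adjusted p 0.0632, limma-trend). Endothelial markers, 8 of 8 present, summed to 7429 to 9289 in wild type and 6630 to 7363 in the heterozygote-labelled libraries. That is the opposite order to Mef2c, but 5 of the 8 log2 differences were above 0 and their median was 0.03. The lower sum was carried by Cldn5 (2553 against 1851) and Emcn (1332 against 852), named after their values were seen. The 10 macrophage and microglia markers, all present, summed to 4135 to 6399 and 3985 to 5487 and overlapped. Their log2 differences were above 0 for 2 and below 0 for 8, with a median of -0.11. Named after their values were seen, P2ry12 was lower without overlap (128 against 83.2; adjusted p 0.294, limma-trend). Tmem119 was higher with overlap (525 against 784; adjusted p 0.266, limma-trend). The neuronal sum overlapped as well, and so did that of 3 B cell markers (1487 to 1679 against 1596 to 2077), of which Cd79b, Ms4a1 and Pax5 were not in the table. The 8 oligodendrocyte markers summed to 24390 to 30028 in wild type and 11502 to 19051 in the heterozygote-labelled libraries, with Mog, a myelin surface protein, among the 12 genes that passed the threshold (adjusted p 0.0354, limma-trend). Osteoblast and osteocyte markers had higher means in the heterozygote-labelled libraries for 8 of 8 (median log2 difference 0.83), with sums of 5149 to 20782 in wild type and 11591 to 27055. Of 7 neutrophil markers 5 were in the table (Camp and Retnlg were not), all 5 with higher means (median 3.62) and 4 without overlap, and they summed to 117 to 2363 and 668 to 6072. The 6 astrocyte markers, all present, had a median of -0.45, with 3 lower without overlap, and summed to 27269 to 39098 and 18600.4 to 29614. The part of these cell types in the Mef2c and Hdac4 values was not tested.

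By profile over the 8 libraries, the genes nearest to Mef2c were Chst11, Dusp7, Wasf2, Gcc1 and Ddx58, with a root-mean-square difference of centred log2 values of 0.0903, 0.0995, 0.107, 0.109 and 0.112. Mef2c itself varied by 0.298 around its mean on the same measure. These genes were picked for sharing the order of Mef2c, and their log2 differences between genotypes, 0.41 to 0.48, are a description of that choice. For the other 6, the nearest genes were Suz12 for Mef2a (0.0383), Ubn1 for Mef2d (0.0631), Dcp1a for Hdac4 (0.0813), Capzb for Hdac5 (0.0363), Ltv1 for Hdac7 (0.0922) and Rbbp9 for Hdac9 (0.0528). None of these 11 was another of the 7.

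The remaining genes of the pathway were read from 8 lists of 94 genes, of which 87 were in the table and tested. None of the 87 passed an adjusted p of 0.05 in limma-trend. At an unadjusted p under 0.05 there were 17 higher and 3 lower in the heterozygote-labelled libraries, and 9 higher and 2 lower did not overlap between genotypes. Of all 14870 genes tested, 999 (6.72%) were higher and 1091 lower at that p, and 506 (3.4%) higher and 574 lower did not overlap. The median log2 difference over the 87 was 0.08, beside 0.02 over all genes tested. The lists were drawn with earlier results of these data known. Each list is given by its counts and its median, with no test of the list.

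Partner factors of MEF2, which bind DNA or acetylate histones with it, had higher means in the heterozygote-labelled libraries for 11 of the 11 tested, with a median log2 difference of 0.29, 5 unadjusted p under 0.05 and 3 without overlap, beside 6.72% and 3.4% of all genes tested in that direction. Myocd, Gata4, Myod1 and Myog, factors of heart and muscle, were not in the table. The histone acetyltransferase Ep300 was at 1088 ± 154 and 1540 ± 301 normalized counts (SD, n = 4), a log2 difference of 0.49 (SE 0.15, adjusted p 0.255, limma-trend). Cabin1, a calcineurin inhibitor that also binds MEF2, was at 649, 698, 775 and 789 in wild type and at 869, 894, 874 and 935 in the heterozygote-labelled libraries, without overlap (log2 difference 0.30, adjusted p 0.278, limma-trend). Nfatc1, a calcineurin-activated factor, was at 161, 165, 203 and 223.5 against 235, 241, 268 and 347, also without overlap (log2 difference 0.53, adjusted p 0.279, limma-trend). After the length correction the median of the list was 0.11 and 8 of 11 had higher means.

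The corepressors that class IIa deacetylases bring to DNA had higher means for 10 of 11, with a median log2 difference of 0.16, and the median was 0.03 after the length correction. Hdac3, the catalytic subunit of the complex, had a log2 difference of 0.01 (SE 0.12). Cbx5, a heterochromatin protein, was at 2222 ± 236 and 2637 ± 115 normalized counts (SD, n = 4), without overlap (log2 difference 0.25, adjusted p 0.296, limma-trend). Bcl6, a repressor that recruits these corepressors, was at 726 ± 100.3 and 840.1 ± 71.4 with overlap (0.22, adjusted p 0.427).

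The 6 genes listed as other histone deacetylases lay on the opposite side of 0, all with lower means in the heterozygote-labelled libraries. Their median log2 difference was -0.19, and that of Hdac6 was near 0 at -0.01 (SE 0.15). Hdac3, counted above with the corepressors, is not among these 6 and lay slightly above 0. Hdac11, the class IV enzyme found in neurons and myelinating glia, was at 2062, 2131, 2016 and 2463 normalized counts in wild type and at 1954, 1829, 1603 and 1552 in the heterozygote-labelled libraries. The genotypes did not overlap, and the log2 difference was -0.32 (SE 0.10, adjusted p 0.266, limma-trend). Hdac2, a class I enzyme, also did not overlap, at 1877 ± 72.8 and 1696 ± 55.9 (log2 difference -0.15, adjusted p 0.420, limma-trend). Hdac10 was at 254 ± 61.3 and 207 ± 25.02 with overlap (-0.27, adjusted p 0.543). Without wild type library 3, 1 of the 6 had a higher mean in the heterozygote-labelled libraries, and after the length correction 0 of 6 did. The summed oligodendrocyte markers, given above, separated the genotypes in the same direction as Hdac11, and their part in its values was not tested.

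Kinases that phosphorylate class IIa deacetylases had higher means for 12 of 18, with a median log2 difference of 0.09, and for 9 of 18 with a median of 0.02 after the length correction. Camk1d, a calcium and calmodulin dependent kinase, was at 253, 440.0, 464 and 348 normalized counts in wild type and at 510.5, 537, 482.5 and 581 in the heterozygote-labelled libraries, without overlap (log2 difference 0.52, SE 0.18, adjusted p 0.278, limma-trend). As for Hdac4, wild type library 1 held its lowest value. Mark2, a microtubule affinity kinase, had a log2 difference of 0.28 (adjusted p 0.297) and Prkaa2, a catalytic subunit of AMP-activated kinase, one of 0.30 (adjusted p 0.327, limma-trend), both with overlap. The 14-3-3 proteins, which hold the phosphorylated deacetylases in the cytoplasm, were 4 higher and 3 lower of 7, with a median of 0.04 that was -0.02 without wild type library 1. The largest difference among them was that of Sfn, at 239 ± 32.5 and 182 ± 19.6 (log2 difference -0.39, adjusted p 0.343, limma-trend). Ywhae had a difference of -0.20 (adjusted p 0.355) and Ywhaq one of -0.14 (adjusted p 0.446).

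Phosphatases that reverse this phosphorylation, calcineurin and protein phosphatase 2A with their regulators, were 5 higher and 5 lower of 10, with a median log2 difference of -0.01 and 0 unadjusted p under 0.05. Without wild type library 1, 1 of 10 had a higher mean. The smallest p among them belonged to Ppp2cb, Ppp2ca and Ppp3cc, with log2 differences of -0.12, -0.07 and 0.13 and adjusted p of 0.624, 0.704 and 0.733 by limma-trend. Kinases that act on MEF2 proteins themselves were 6 higher and 4 lower of 10, with a median of 0.07. Map2k6, which activates the p38 kinases, was at 542.5, 449.5, 480.3 and 380.5 in wild type and at 601, 670.0, 655 and 632 in the heterozygote-labelled libraries, without overlap (log2 difference 0.47, SE 0.13, adjusted p 0.222, limma-trend). Gsk3b had a log2 difference of 0.44 (adjusted p 0.285) and Mapk14, which encodes p38 alpha, one of 0.18 (adjusted p 0.443), both with overlap.

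**Figure D4:**
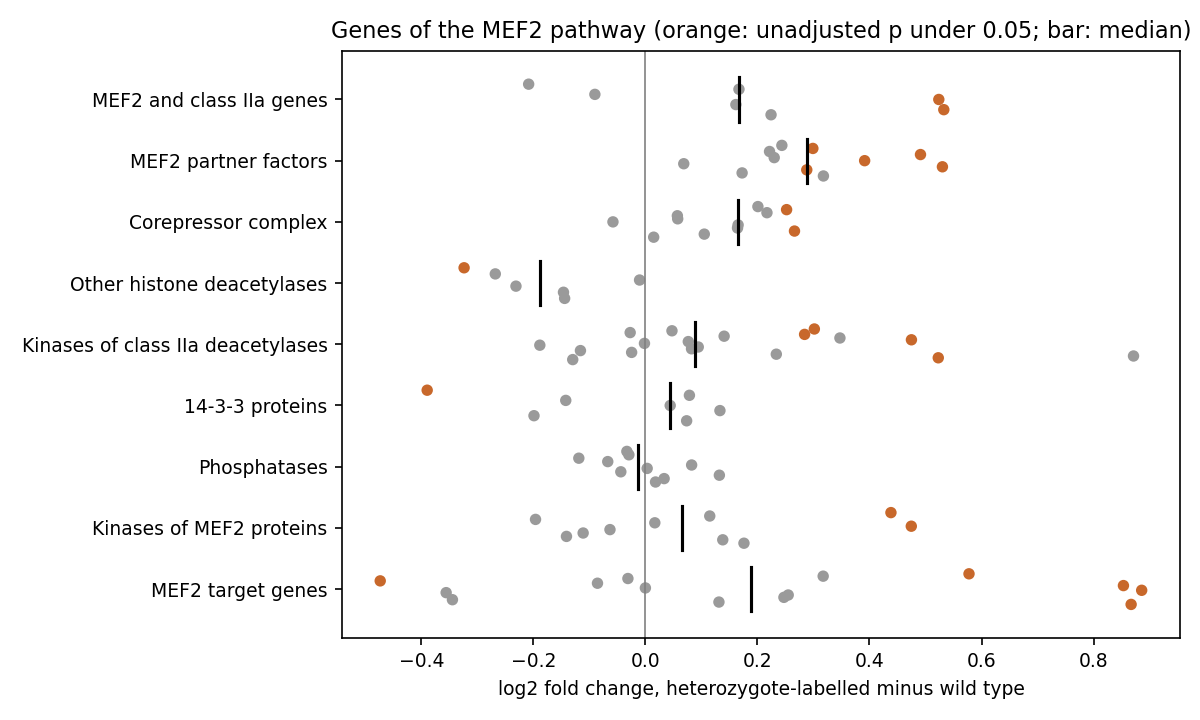
Log2 fold change (horizontal axis, heterozygote-labelled libraries minus wild type) of each tested gene of the 7 MEF2 and class IIa genes and of 8 pathway lists, with orange points for an unadjusted limma-trend p under 0.05 and a black bar at each list's median. All 11 partner factors lie above 0 and all 6 genes listed as other deacetylases lie below 0, while the phosphatases center on -0.01. Hdac3 is shown with the corepressors.

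Genes known as MEF2 targets in other tissues were 9 higher and 5 lower of the 14 tested, with a median log2 difference of 0.19, 4 unadjusted p under 0.05 higher and 1 lower. Without wild type library 1 the median was 0.10. Ckm, Hrc and Col10a1, targets in muscle and cartilage, were not in the table. Klf4, a Krüppel-like factor, was at 475, 336, 472 and 324 normalized counts in wild type and at 512, 931, 819.9 and 668.5 in the heterozygote-labelled libraries. Its genotypes did not overlap, and the log2 difference was 0.85 (SE 0.20, adjusted p 0.178, limma-trend). Nr4a1, an orphan nuclear receptor and early response gene, was at 188, 307.5, 258 and 273 against 420.4, 327, 564.5 and 585, also without overlap (log2 difference 0.87, SE 0.21, adjusted p 0.210, limma-trend). Bdnf, a neurotrophin for spiral ganglion neurons, was at 109, 143.5, 124 and 82.1 against 252, 129, 227 and 255. Library 6 lay within the wild type range, and the log2 difference was 0.89 (SE 0.26, adjusted p 0.255, limma-trend). Des, the intermediate filament of muscle, named after its value was seen, was the 1 target with a lower mean and an unadjusted p under 0.05, at a log2 difference of -0.47 (adjusted p 0.319, limma-trend). Arc and Pcdh10, targets described in neurons, had differences of -0.34 and -0.36 (adjusted p 0.482 and 0.415), so genes of this list lay on both sides of 0.

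The promoters of the 7 genes were searched for the MEF2 motif, since MEF2 factors are known to act on MEF2 genes themselves. RefSeq (GRCm38.p6) gave 13 start sites for the 7 genes, each with 250 bases before and 50 after the start. Because the motif equals its own reverse complement, 1 search covered both strands. It occurred in 2 of the 13 windows, 1 of Mef2a and 1 of Hdac5, and in 0 of the 3 windows of Mef2c. These 2 windows are shown 5′ to 3′ along the gene's strand, the minus strand, with the match in capitals.
Mef2a, chr7:67372809-67373108: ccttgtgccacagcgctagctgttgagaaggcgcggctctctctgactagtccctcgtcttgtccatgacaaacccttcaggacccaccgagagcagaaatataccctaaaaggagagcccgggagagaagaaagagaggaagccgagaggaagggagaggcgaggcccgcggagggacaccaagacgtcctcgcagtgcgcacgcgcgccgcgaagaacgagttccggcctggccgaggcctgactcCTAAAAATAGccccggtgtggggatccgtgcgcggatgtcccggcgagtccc
Hdac5, chr11:102230123-102230422: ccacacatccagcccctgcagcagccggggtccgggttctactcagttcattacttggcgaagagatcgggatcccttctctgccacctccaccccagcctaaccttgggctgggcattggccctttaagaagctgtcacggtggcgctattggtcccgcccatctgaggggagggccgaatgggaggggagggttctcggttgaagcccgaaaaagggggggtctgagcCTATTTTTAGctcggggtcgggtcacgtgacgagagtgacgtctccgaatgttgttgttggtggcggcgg
The match began 2 bases before the Mef2a start and 20 bases before the Hdac5 start, in windows of 62.3% and 60.7% GC. The motif was found in 3.19% of 32851 mouse promoter windows and in 1.71% of the 14964 windows of genes tested. A match is a description of the letters and shows no binding.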

How the data were processed

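RNA from the auditory nerves of 8 mice, 4 of each genotype, was made into directional poly(A) libraries from 50 ng of total RNA with an integrity number of at least 7, per the labels' protocols. The submitters' processing notes name Partek, STAR, DESeq2 and the build mm10, while the counting method and annotation are not given in the sources used here. The authors deposited a signal column per library, given to 1 decimal and taken here as gene counts divided by a size factor. Most low values were whole multiples of 1 step per library, where 9.2% to 15.2% would be by chance, but not all were. Per the file headers, the authors' deposited columns for heterozygote against wild type hold a p-value with an FDR, the ratio and its log2, and a signed fold change, which is a score left unused here. There were 0 columns of other samples.

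Groups came from the sample titles, and replicate numbers are not shared between genotypes. Genes that reached 10 normalized counts in 4 or more libraries were fitted as log2(value + 1) with limma-trend (limma 3.58.1, R 4.3.3) and no covariate. P-values were adjusted over all of these genes by Benjamini-Hochberg, with a threshold of 0.05. Fold changes on this scale understate those of low genes. Where genes of a list are counted as having higher or lower means, the means are of log2(value + 1). Whole multiples of the value of 1 read made up 88.1% to 92.0% of low values, within 0.06 of a whole number, under the 95% needed, so no count test was run. Lengths, positions and coding sequences came from GENCODE M21, which covered 97.6% of genes, and promoters from RefSeq. The rest used numpy 2.4.6 and pandas 2.3.3 under Python 3.11.15, with matplotlib 3.10.9 for plots, and the fit was tested on simulated data.

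All 7 genes are named, with the 3 genes of smallest p in each list (1 of them is not reported here), the 5 nearest profiles to Mef2c and the 1 nearest to each other gene. The genes and lists were chosen with earlier results of these data known. The 19 alternatives covered pseudocount, filter, scaling, weights, covariates, transcript length and left-out libraries.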

Additional observations from a re-analysis of the deposited data

Results flagged for a closer look

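Among the groups checked, Hdac4 in wild type was the 1 with a library far from the rest. Library 1 was at 229.7 normalized counts while the other 3 wild type libraries lay between 483 and 523, and its gap to the nearest of them was 0.865 of the group's whole range. That is above Dixon's 95% critical value for 4 libraries, and 62 groups were checked, of which chance alone would mark about 3.1 (1 in 20). The same library was 1 of the 2 low in Xist and had the most negative tilt of values with transcript length, -0.21 per doubling. The part of either in its Hdac4 value was not tested. Groups outside the 62 also passed that critical value. In wild type, library 1 was far below the rest for Srf (gap 0.845 of the range) and for Dcp1a (0.912), picked for its likeness to Hdac4. Library 3 was far below the rest for Prkd1 (0.956).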

How the results depend on the processing

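With 4 libraries a genotype, the standard errors of the 7 log2 differences were 0.08 (Hdac5) to 0.23 (Hdac4), which limits the size of difference that could be detected. Under the 19 alternatives each of the 7 kept the sign of its difference. Mef2c ranged from 0.38 to 0.60 without overlap of the genotypes in 19 of 19, and Hdac4 from 0.23 to 0.64 without overlap in 18 of 19. Pseudocounts, filters, weights, covariates and left-out libraries cannot bring overlap to a gene that has none. Only upper-quartile scaling, quantile normalization and the length correction could do so, and Hdac4 overlapped with the length correction. Mef2c passed the adjusted threshold in limma-trend in 1 of the 19, with a covariate for the leading residual principal component (0.53, adjusted p 0.0404, over a range of 0.0404 to 0.554). That covariate gave 2 of the 7 genes and 576 of all genes an adjusted p under 0.05, against 0 and 12 without it. It was taken from the residuals of these same values, so it lowers the residual spread by construction. The count over all genes was 7 with quantile normalization, 96 with sample quality weights and 26 with the length correction, and leaving out 1 library at a time gave 0 to 221. It was 221 without wild type library 3, 0 without library 2, 4 or 8, 7 without library 5 and 6 without library 7. The number of the 7 genes without overlap was 1 with the length correction and 2 to 4 with 1 library left out, with Mef2a and Hdac5 added when wild type library 3 was left out. Ppp2cb changed sign with the length correction, to 0.0219. The cause of these shifts was not tested. The count test named as an alternative was not run, since whole reads were not recovered. No paired analysis was possible because the genotypes share no replicate numbers.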
